A study of Mus musculus with 24 samples.

Results

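Alveolar macrophages, the resident phagocytes of the air spaces, take up and break down lung surfactant, and 40 genes for lipid uptake, sterol efflux, lysosomal hydrolysis, storage and fatty acid oxidation were followed in them from birth to adulthood, at rest and after LPS. The members were named by symbol as a surfactant catabolism module. They and the other gene lists were chosen with earlier results of these data known. Shares and medians of the members beside those of all genes are therefore given as descriptions. Members with at least 1 FPKM (counts scaled to exonic length and library total) in 2 or more libraries were tested. Of the 40 members, 38 passed that rule, among 11774 of the 56691 genes in the table. Vldlr, a lipoprotein receptor, reached 1 FPKM in 0 libraries and Ppargc1b, a transcriptional coactivator of oxidative metabolism, in 0, so neither was tested. Abca7 and Slc27a1 passed with 8 and 5 libraries at that level, none of them older than D3.

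Cells were obtained by lavage from mice at 1, 3, 7, 21 or 49 days of age (D1 to D49), several mice being pooled for each library, and were cultured for 4 h in medium alone (control) or with 400 ng/mL LPS, an endotoxin of E. coli 055:B5 that acts through Toll-like receptor signalling. There were 24 libraries in 10 groups: 2 control and 3 LPS libraries for D1, 2 of each for D7, and 3 control and 2 LPS libraries for each of D3, D21 and D49. The labels give no strain, genotype or sex, and all groups share the same short culture, so the control cells are cultured cells as well. The study's title asks how these macrophages change after birth, and the design sets LPS against control at each age and the ages against each other. The labels do not say that the replicates of a group came from separate animals, so p-values measure the spread between these libraries, which may be technical.

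Surfactant is made of phospholipids, cholesterol and proteins. Macrophages clear a large part of it: lipid enters through scavenger receptors and phagocytosis, is hydrolysed in lysosomes, and its cholesterol is either esterified into droplets or handed to ABC transporters under the control of the oxysterol receptors LXR alpha and LXR beta. The fatty acids are bound by FABP proteins, stored as triglyceride or oxidised in mitochondria. Mice and people that lack the growth factor GM-CSF or its signalling accumulate surfactant in their alveoli, and macrophages then fill with lipid.

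Library totals were 15.8 to 23.3 M counts. All 15 alveolar macrophage markers were detected, with a summed level of 7340 to 52340 CPM (counts scaled to a common library total), lowest at D1 and highest at D49. The markers, the member Fabp1 among them, weigh unequally in that sum. Chil3 ran from 114 to 21770 FPKM and Siglecf from 6.32 to 92.5 FPKM. Libraries stood apart in the balance of GC-rich against GC-poor transcripts: the median log2 deviation of the 10% of genes richest in GC minus that of the 10% poorest in GC ran from -3.17 to 2.84, was beyond 1 in 10 libraries and lay between -0.21 and 0.36 in the 10 libraries numbered 1. It was positive in D1 and D3 libraries and negative in D21 and D49 control libraries. Age and GC balance therefore cannot be fully told apart. In D21 libraries it was -2.14 to -0.02 without LPS, and 0.04 and -0.20 with LPS. In D49 libraries it was -3.17 to -0.095 without LPS, and -0.21 and -1.35 with LPS. At these ages LPS and GC balance cannot be fully told apart either. The covariate used below comes from the same expression values. The selected libraries used below leave 1 control at D1 and 1 at D49. Neither fit therefore separates age or LPS from GC balance fully. Markers of other tissues also moved with the groups. The summed level of 6 exocrine gland genes was 0.23 to 0.62 CPM in D1 controls against 855 to 1321 with LPS at D1, and 1301 to 2386 in D49 controls against 7.25 to 9.31 with LPS at D49. Skeletal muscle markers reached 294 CPM in 1 D21 control library, adipocyte markers stayed at 0.9 to 22.1 CPM and alveolar type 2 markers at 6.0 to 77.7 CPM. The part of these tissues in the results was not tested.

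The promoter windows of 5 members on which the results turn are shown, from 250 bases before to 50 bases after the start of transcription, as given by RefSeq for GRCm38.p6 (the counts were made on GRCm39). Soat1 and Nceh1 encode the enzymes that make and cleave cytosolic cholesteryl ester, Ch25h and Lipa lie side by side on chromosome 19 and moved in opposite directions with LPS, and Fabp1 had the largest age difference. Capitals mark the matches to the motifs named after the sequences. Soat1 was read from chr1:156474279-156474578 on the minus strand, Nceh1 from chr3:27182754-27183053 on the plus strand, Lipa from chr19:34527425-34527724 on the minus strand, Ch25h from chr19:34475099-34475398 on the minus strand and Fabp1 from chr6:71199629-71199928 on the plus strand.
Soat1: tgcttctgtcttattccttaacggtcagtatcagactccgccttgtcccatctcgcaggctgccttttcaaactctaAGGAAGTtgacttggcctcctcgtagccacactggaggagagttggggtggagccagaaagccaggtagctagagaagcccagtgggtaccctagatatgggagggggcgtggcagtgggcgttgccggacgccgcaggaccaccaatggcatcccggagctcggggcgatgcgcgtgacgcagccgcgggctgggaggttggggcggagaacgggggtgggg
Nceh1: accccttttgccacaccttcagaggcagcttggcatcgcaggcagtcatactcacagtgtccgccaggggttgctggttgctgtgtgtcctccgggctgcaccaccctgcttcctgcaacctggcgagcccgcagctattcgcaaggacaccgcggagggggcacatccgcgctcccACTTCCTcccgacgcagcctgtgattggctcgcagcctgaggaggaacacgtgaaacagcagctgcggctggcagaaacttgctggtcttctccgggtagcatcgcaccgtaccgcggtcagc
Lipa: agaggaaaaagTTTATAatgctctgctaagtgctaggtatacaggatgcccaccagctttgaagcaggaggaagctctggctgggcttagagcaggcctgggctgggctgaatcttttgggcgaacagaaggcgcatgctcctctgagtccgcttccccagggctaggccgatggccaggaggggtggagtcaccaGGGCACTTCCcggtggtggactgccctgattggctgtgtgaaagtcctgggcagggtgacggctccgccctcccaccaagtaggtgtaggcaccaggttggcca
Ch25h: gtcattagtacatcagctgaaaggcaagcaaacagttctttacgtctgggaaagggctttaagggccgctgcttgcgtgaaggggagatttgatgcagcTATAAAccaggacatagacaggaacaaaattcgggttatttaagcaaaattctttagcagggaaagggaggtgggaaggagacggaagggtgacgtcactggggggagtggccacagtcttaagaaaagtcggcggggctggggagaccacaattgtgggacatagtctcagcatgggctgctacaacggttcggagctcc
Fabp1: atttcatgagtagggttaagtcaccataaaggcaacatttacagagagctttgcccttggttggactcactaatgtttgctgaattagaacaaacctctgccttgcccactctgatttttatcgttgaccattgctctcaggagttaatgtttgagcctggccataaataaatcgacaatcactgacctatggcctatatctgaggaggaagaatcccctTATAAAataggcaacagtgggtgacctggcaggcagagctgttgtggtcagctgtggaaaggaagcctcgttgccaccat

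Motifs were searched on both strands of 38 windows of 31 members and of all 32851 windows. The PU.1 motif AGGAAGT was in the windows of Soat1, Nceh1 and Acadvl and in 9.35% of all windows, beginning 173 bases before the Soat1 start and 73 bases before the Nceh1 start. The NF-kappa-B motif GGGNNNTTCC was in those of Lipa, Cpt2, Mgll and Slc27a4 and in 5.56% of all windows, beginning 54 bases before the Lipa start. The TATA motif TATAAA was in those of Fabp1, Ch25h, Lipa, Abca1, Apoe and Lpcat2 and in 13.6% of all windows, beginning 30 bases before the Fabp1 start. The AP-1 motif TGANTCA was in those of Acadvl and Trem2 and in 7.81% of all windows, and the interferon motif GAAANNGAAA was in that of Vldlr and in 3.44%. No member window held the PPAR motif AGGTCANAGGTCA, the LXR motif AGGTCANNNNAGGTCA or the lysosomal CLEAR motif TCACGTGA, which were in 0.0396%, 0.0152% and 0.974% of all windows. A match describes letters in the window and says nothing of binding. The starts of Ch25h and Lipa are 52.3 kb apart. Those of Hadha and Hadhb, the subunits of the mitochondrial trifunctional protein, lie head to head with 273 bases between them, and their windows share 228 bases.

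With LPS, Soat1 and Nceh1 (cholesteryl ester turnover) and Lipa (lysosomal lipolysis) fell at every age. Dgat2 (triglyceride synthesis) and Ch25h (oxysterol synthesis) rose, while Dgat1, the other enzyme of the Dgat2 step, did not pass. Averaged over the 5 ages, 4 of 38 tested members rose and 12 fell, 42.1% in all, beside 33.6% of the 11774 genes (14.9% up, 18.8% down) that passed edgeR's quasi-likelihood (QL) test at an adjusted p under 0.05. Responses are log2 fold changes (LPS minus control) ± SE with adjusted p from that test, and in bulk RNA fewer cells of a type and less RNA per cell cannot be told apart. The median log2 fold change was -0.14 over the members and 0.01 over all tested genes. Ch25h, Dgat2, Fabp4 and Lpcat2 rose. Abcg1, Cd36, Cpt1a, Cpt2, Hadhb, Lipa, Lpl, Nceh1, Npc1, Pla2g7, Soat1 and Trem2 fell. Of these 16 calls, 15 were also made in the same direction both with GC balance as a covariate, where 21 members (4 up, 17 down) and 41.3% of all genes (18.6% up, 22.7% down) passed, and in the 14 libraries within 1, where 18 members (4 up, 14 down) and 40.2% of all genes (19.9% up, 20.3% down) passed. The exception was Npc1, which did not pass in the 14 libraries. In the 10 libraries numbered 1 alone, 5 members rose and 17 fell, beside 46.9% of all genes (23.0% up, 23.9% down). Calls of Npc1 and Cpt1a were lost on leaving out any of 5 single libraries each, with adjusted p up to 0.061 and 0.074.

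**Figure D1:**
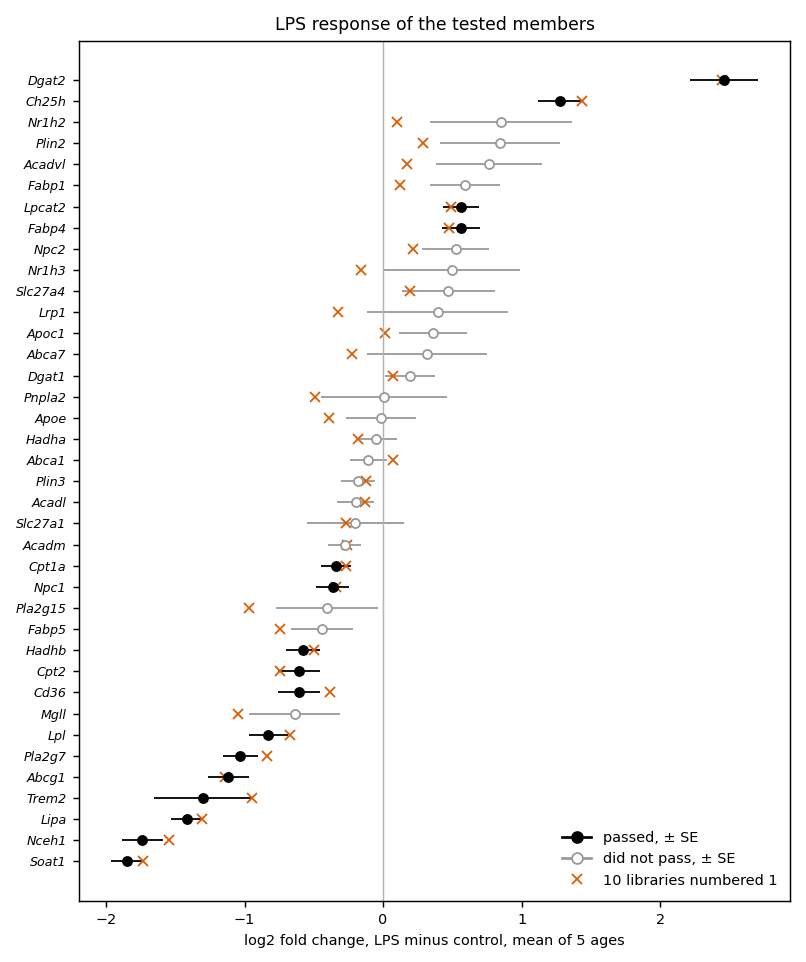
Mean LPS response of the 38 tested members. The x axis is the log2 fold change (LPS minus control, mean of the 5 ages) with bars for the standard error, filled points passed, and crosses are the same response in the 10 libraries numbered 1. Dgat2 at 2.46 and Soat1 at -1.85 mark the ends, and in both the cross lies close to the point.

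Counted by age, 5 members passed at D1 (2 up, 3 down), beside 5.67% of all tested genes (3.74% up, 1.93% down). The D3 test also called 5 (2 up, 3 down), beside 7.01% (4.43% up, 2.57% down). D7 gave 6 (2 up, 4 down), beside 9.61% (5.15% up, 4.47% down). D21 gave 8 (2 up, 6 down), beside 13.5% (6.77% up, 6.74% down), and D49 gave 8 (1 up, 7 down), beside 10.2% (5.24% up, 4.98% down). All of these member calls were also made under the GC covariate, and all kept their direction among the 14 libraries. At D1 and D49 those libraries set 1 LPS library against 1 control. Soat1, Nceh1 and Lipa passed at all 5 ages, and in each of them every LPS library lay below every control library at every age, which held for 4.96% of all tested genes. Dgat2 was the member with every LPS library above every control library at all 5 ages, which held for 5.36% of genes. Soat1 kept its 5 calls whichever library was left out. At D1 the calls of Lipa, Nceh1 and Dgat2 each ended without D1 control replicate 1, with adjusted p of 0.0866, 0.17 and 0.14, and those of Lipa and Nceh1 also without D1 LPS replicate 2 (0.0502 and 0.0839), and that of Nceh1 without D1 LPS replicate 3 (0.0504). Without D3 LPS replicate 2 the D3 calls of Lipa and Nceh1 ended (adjusted p = 0.0939 and 0.137), and without D3 LPS replicate 1 those of Nceh1 and Ch25h (0.0526 and 0.0537). Without D7 LPS replicate 2 the D7 call of Lipa ended (adjusted p = 0.0534).

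**Figure D2:**
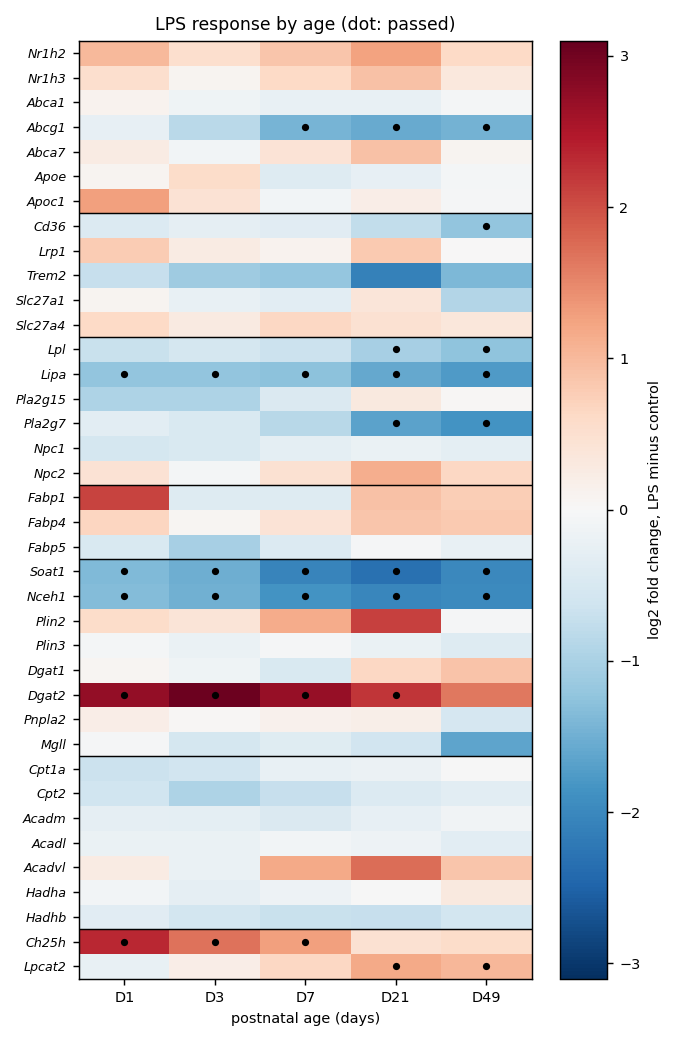
LPS response of the 38 tested members by age. Colour gives the log2 fold change (LPS minus control), dots mark values that passed, and lines part the role groups in the order efflux, uptake, lipases, fatty acid binding, storage, oxidation and remodelling. Soat1, Nceh1 and Lipa carry a dot at all 5 ages and Dgat2 at the first 4.

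Among the 8 tested genes of storage and mobilisation, 1 rose and 2 fell on average, beside 14.9% up and 18.8% down over all tested genes. Soat1, which esterifies cholesterol for storage in droplets, fell most of all members. Soat1 read 56.8 and 44.6 for D1, 62.1, 43.7 and 68.9 for D3, 79.3 and 79.7 for D7, 72.4, 74.2 and 87.3 for D21, and 66.7, 94.9 and 51.2 for D49 (FPKM, control libraries). With LPS, Soat1 read 22.5, 18.7 and 18.2 for D1, 22.4 and 18.3 for D3, 19.7 and 18.8 for D7, 15.7 and 15.5 for D21, and 17.9 and 17.9 for D49 FPKM. Every LPS library lay below every control library of its age. Soat1 responded on average by -1.85 ± 0.11 (adjusted p = 3.11e-10), and the responses by age were -1.36 ± 0.24 for D1, -1.52 ± 0.25 for D3, -2.05 ± 0.27 for D7, -2.32 ± 0.26 for D21 and -1.99 ± 0.26 for D49.

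Nceh1 encodes a hydrolase that releases cholesterol from droplet esters, the reverse of the step made by Soat1. Nceh1 read 64.1 and 49.8 for D1, 86.3, 90.1 and 61.6 for D3, 109 and 103 for D7, 124, 166 and 131 for D21, and 138, 104 and 291 for D49 (FPKM, control libraries). With LPS, Nceh1 read 25.7, 20.9 and 20.6 for D1, 31.2 and 25.4 for D3, 31.8 and 26.6 for D7, 36.1 and 32.8 for D21, and 43.9 and 46.7 for D49 FPKM. The groups did not overlap at any age, and D49 control library 3 stood far above the others of its group. Its mean response was -1.74 ± 0.15 (adjusted p = 2.67e-08), against -1.55 in the libraries numbered 1. The responses were -1.34 for D1, -1.49 for D3, -1.86 for D7, -2.03 for D21 and -1.97 for D49.

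Dgat2 carries out the last step of triglyceride synthesis and had the largest rise. Dgat2 read 4.06 and 8.38 for D1, 2.79, 5.11 and 2.14 for D3, 1.49 and 0.738 for D7, 1.52, 1.38 and 1.05 for D21, and 1.01, 0.696 and 1.34 for D49 (FPKM, control libraries). With LPS, Dgat2 read 20.8, 60.2 and 43.0 for D1, 18.5 and 36.6 for D3, 7.36 and 7.00 for D7, 7.65 and 4.67 for D21, and 4.53 and 1.75 for D49 FPKM. All LPS libraries were above all control libraries at each age, most closely at D49. Dgat2 responded on average by 2.46 ± 0.24 (adjusted p = 1.81e-07). It passed at D1 (2.73 ± 0.57), D3 (3.04 ± 0.52), D7 (2.69 ± 0.60) and D21 (2.22 ± 0.52), and at D49 it was 1.63 ± 0.52 (adjusted p = 0.0544). Without D7 control replicate 2 the D7 call ended (adjusted p = 0.11), and without D21 LPS replicate 1 the D21 call ended (adjusted p = 0.087).

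Dgat1, the other enzyme of that step, was 0.20 ± 0.18 (adjusted p = 0.45). Its LPS libraries (2.67 and 2.74 FPKM) lay below the D7 controls (3.47 and 4.02 FPKM), whereas at D21 and D49 its LPS libraries lay above all controls, with group means of 2.24 against 1.43 and 1.76 against 0.949 FPKM.

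Plin2, the main droplet coat protein of macrophages, was one of the most abundant members. Plin2 read 348 and 1060 for D1, 235, 699 and 467 for D3, 154 and 264 for D7, 131, 47.3 and 62.9 for D21, and 386, 36.3 and 15.9 for D49 (FPKM, control libraries). With LPS, Plin2 read 424, 1320 and 1386 for D1, 323 and 917 for D3, 266 and 668 for D7, 219 and 479 for D21, and 171 and 114 for D49 FPKM. The D49 controls alone ran from 15.9 to 386 FPKM, and LPS and control overlapped at D1, D3 and D49. Plin2 responded on average by 0.84 ± 0.43 (adjusted p = 0.148). With a replicate block within each age, chosen after seeing the data, it passed, as given in the last section. In the libraries numbered 1 the LPS level was above the control at 4 of the 5 ages and below it at D49. In those numbered 2 it was above the control at all 5 ages. Plin3, another coat protein, was -0.18 ± 0.12 (adjusted p = 0.273). The lipases Pnpla2 and Mgll, which take apart triglyceride and monoglyceride, were 0.01 ± 0.46 (adjusted p = 1) and -0.64 ± 0.33 (adjusted p = 0.149). Both passed under the GC covariate (-0.67 and -1.09) and among libraries numbered 1 (-0.49 and -1.05). Mgll also passed in the 14 libraries, at -0.94.

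Of the 6 lipases and lysosomal export genes, 0 rose and 4 fell on average, beside 14.9% up and 18.8% down over all tested genes. Lipa, the lysosomal acid lipase that frees fatty acids and cholesterol from engulfed lipid, fell at every age. Lipa read 341 and 268 for D1, 455, 303 and 580.4 for D3, 599 and 588 for D7, 507, 572 and 568 for D21, and 584, 737 and 461 for D49 (FPKM, control libraries). With LPS, Lipa read 151, 106 and 134 for D1, 203 and 177 for D3, 247 and 243 for D7, 182 and 183 for D21, and 180.0 and 172 for D49 FPKM. No LPS library reached the lowest control of its age. Lipa responded on average by -1.42 ± 0.12 (adjusted p = 1.35e-08), with -1.23 ± 0.24 at D1 and -1.75 ± 0.26 at D49.

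Lpl, the secreted lipoprotein lipase, came next to Cd36 in median FPKM. Lpl read 291 and 216 for D1, 341, 213 and 427 for D3, 414 and 419 for D7, 546, 580.0 and 542 for D21, and 689.5, 594 and 1347 for D49 (FPKM, control libraries). With LPS, Lpl read 187, 146 and 135 for D1, 248 and 203 for D3, 272 and 255 for D7, 273 and 274 for D21, and 367 and 378 for D49 FPKM. LPS libraries were below all controls at D1, D7, D21 and D49 and overlapped with them at D3. Lpl responded on average by -0.83 ± 0.14 (adjusted p = 1.20e-04). It passed at D21 (-1.02 ± 0.31) and D49 (-1.24 ± 0.32), and both calls ended on leaving out single libraries, among them D49 control replicate 3 (-0.75, adjusted p = 0.14).

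Pla2g7, the enzyme that degrades platelet-activating factor and oxidised phospholipids, fell on average and in the tests at D21 and D49. It was at 49.0 ± 9.1 FPKM (SD, n = 2) in D1 controls and 39.3 ± 8.0 (n = 3) with LPS, and at 28.3 ± 5.7 (n = 3) in D49 controls and 7.80 ± 0.11 (n = 2) with LPS. LPS libraries were below all controls at D7, D21 and D49. Pla2g7 responded on average by -1.03 ± 0.13 (adjusted p = 2.81e-06), passing at D21 (-1.66 ± 0.29) and D49 (-1.86 ± 0.29) and not at D1 (-0.32 ± 0.27 (adjusted p = 0.767)). An antisense transcript overlaps 11.0% of its exonic bases, and no source used here says whether the counts used strand.

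Npc1 and Npc2 together move cholesterol out of lysosomes. Npc1 was -0.36 ± 0.12 (adjusted p = 0.0261), with group means of 30.9 to 53.8 FPKM, and Npc2 was 0.52 ± 0.24 (adjusted p = 0.104), with group means of 26.6 to 120 FPKM. Pla2g15, the lysosomal phospholipase A2 that degrades surfactant phospholipid, was -0.41 ± 0.37 (adjusted p = 0.438). A call was made under the GC covariate (-0.85), among the 14 libraries (-0.89) and among those numbered 1 (-0.97).

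Among the 5 tested uptake genes, 0 rose and 2 fell on average, beside 14.9% up and 18.8% down over all tested genes. Cd36, a scavenger receptor for fatty acids and oxidised lipid, had the highest median FPKM of all members. Cd36 read 496 and 345 for D1, 459, 256 and 553 for D3, 595 and 594 for D7, 742, 1036 and 898 for D21, and 883, 929.5 and 1838 for D49 (FPKM, control libraries). With LPS, Cd36 read 389.5, 251 and 294 for D1, 399.9 and 302 for D3, 488 and 438 for D7, 534 and 516 for D21, and 489 and 552 for D49 FPKM. Its LPS libraries lay below all controls at D7, D21 and D49, and the groups overlapped at D1 and D3. Cd36 responded on average by -0.61 ± 0.15 (adjusted p = 0.00381), against -0.38 in the libraries numbered 1 and -0.39 with the GC covariate. At D49 it was -1.23 ± 0.34 (adjusted p = 0.0264), and without D49 control replicate 3 this was -0.77 with an adjusted p of 0.22.

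Trem2, a receptor that senses lipids and lipoproteins, was low. Trem2 read 1.47 and 2.98 for D1, 2.06, 3.98 and 3.43 for D3, 1.69 and 2.10 for D7, 1.11, 1.24 and 1.50 for D21, and 1.24, 0.92 and 0.274 for D49 (FPKM, control libraries). With LPS, Trem2 read 0.81, 2.00 and 1.29 for D1, 1.20 and 1.74 for D3, 0.806 and 0.85 for D7, 0.438 and 0.157 for D21, and 0.609 and 0.0121 for D49 FPKM. LPS libraries were below all controls at D3, D7 and D21, and overlapped with them at D1 and D49. Trem2 responded on average by -1.30 ± 0.36 (adjusted p = 0.00849), and without D49 LPS replicate 1 it was -2.17. No single age passed.

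Lrp1, a large receptor for apolipoprotein E and many other ligands, was 0.39 ± 0.51 (adjusted p = 0.605) and the fatty acid transporters Slc27a1 and Slc27a4 were -0.20 ± 0.35 (adjusted p = 0.719) and 0.47 ± 0.33 (adjusted p = 0.309). Lrp1 and Slc27a4 are GC-rich (57.9% and 56.8%, beside a median of 48.4% over tested genes), and their libraries numbered 2 and 3 stood well above those numbered 1 at D1.

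Of the 7 genes of sterol sensing and efflux, 0 rose and 1 fell with LPS on average, beside 14.9% up and 18.8% down over all genes. Abcg1, which passes cholesterol to HDL and whose loss in mice leads to lipid-laden alveolar macrophages, was the one that fell. Abcg1 read 17.6 and 22.5 for D1, 14.7, 20.0 and 9.66 for D3, 16.2 and 12.1 for D7, 20.1, 19.4 and 17.4 for D21, and 22.4, 17.0 and 24.4 for D49 (FPKM, control libraries). With LPS, Abcg1 read 11.7, 25.2 and 13.3 for D1, 7.70 and 8.73 for D3, 5.78 and 4.62 for D7, 7.32 and 5.43 for D21, and 8.07 and 7.32 for D49 FPKM. The groups overlapped at D1, and the LPS libraries lay below all controls from D3 to D49. Abcg1 responded on average by -1.12 ± 0.15 (adjusted p = 7.30e-06). At single ages the response was -0.26 ± 0.32 (adjusted p = 0.898) for D1, -0.85 ± 0.33 (adjusted p = 0.16) for D3, -1.45 ± 0.36 (adjusted p = 0.012) for D7, -1.57 ± 0.34 (adjusted p = 0.00337) for D21 and -1.47 ± 0.34 (adjusted p = 0.00672) for D49. The D7, D21 and D49 calls each ended on leaving out an LPS library of that age, with adjusted p of 0.057 to 0.15, and the D7 call also without D7 control replicate 1 (0.13).

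Abca1, the transporter that loads cholesterol onto lipid-poor apolipoproteins, did not pass with LPS. Abca1 read 5.62 and 4.68 for D1, 5.88, 4.28 and 6.17 for D3, 6.28 and 5.75 for D7, 6.19, 7.80 and 8.70 for D21, and 7.73, 7.81 and 10.9 for D49 (FPKM, control libraries). With LPS, Abca1 read 6.17, 3.08 and 7.43 for D1, 5.26 and 4.62 for D3, 5.54 and 4.73 for D7, 6.85 and 6.04 for D21, and 8.71 and 8.31 for D49 FPKM. LPS and control overlapped at 4 ages and lay apart, LPS lower, at D7. Abca1 responded on average by -0.11 ± 0.13 (adjusted p = 0.587).

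Apoe, the apolipoprotein that accepts cellular cholesterol, was low in these cells. Apoe read 19.9 and 12.3 for D1, 6.92, 3.73 and 3.55 for D3, 10.6 and 3.97 for D7, 7.30, 3.94 and 8.86 for D21, and 3.16, 5.65 and 9.91 for D49 (FPKM, control libraries). With LPS, Apoe read 18.8, 20.3 and 11.7 for D1, 6.33 and 7.64 for D3, 5.22 and 5.81 for D7, 4.70 and 6.55 for D21, and 2.40 and 9.47 for D49 FPKM. The groups overlapped at all 5 ages. Apoe responded on average by -0.02 ± 0.25 (adjusted p = 1). Apoc1, its neighbour in the apolipoprotein cluster, was 0.36 ± 0.24 (adjusted p = 0.282), with 7.62 ± 1.2 FPKM (SD, n = 3) with LPS and 3.13 ± 0.42 (n = 2) in controls at D1. The LXR genes Nr1h3 (LXR alpha) and Nr1h2 (LXR beta) were 0.49 ± 0.49 (adjusted p = 0.487) and 0.85 ± 0.52 (adjusted p = 0.226), and Abca7, a lipid transporter linked to phagocytosis, was 0.32 ± 0.43 (adjusted p = 0.628).

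**Figure D3:**
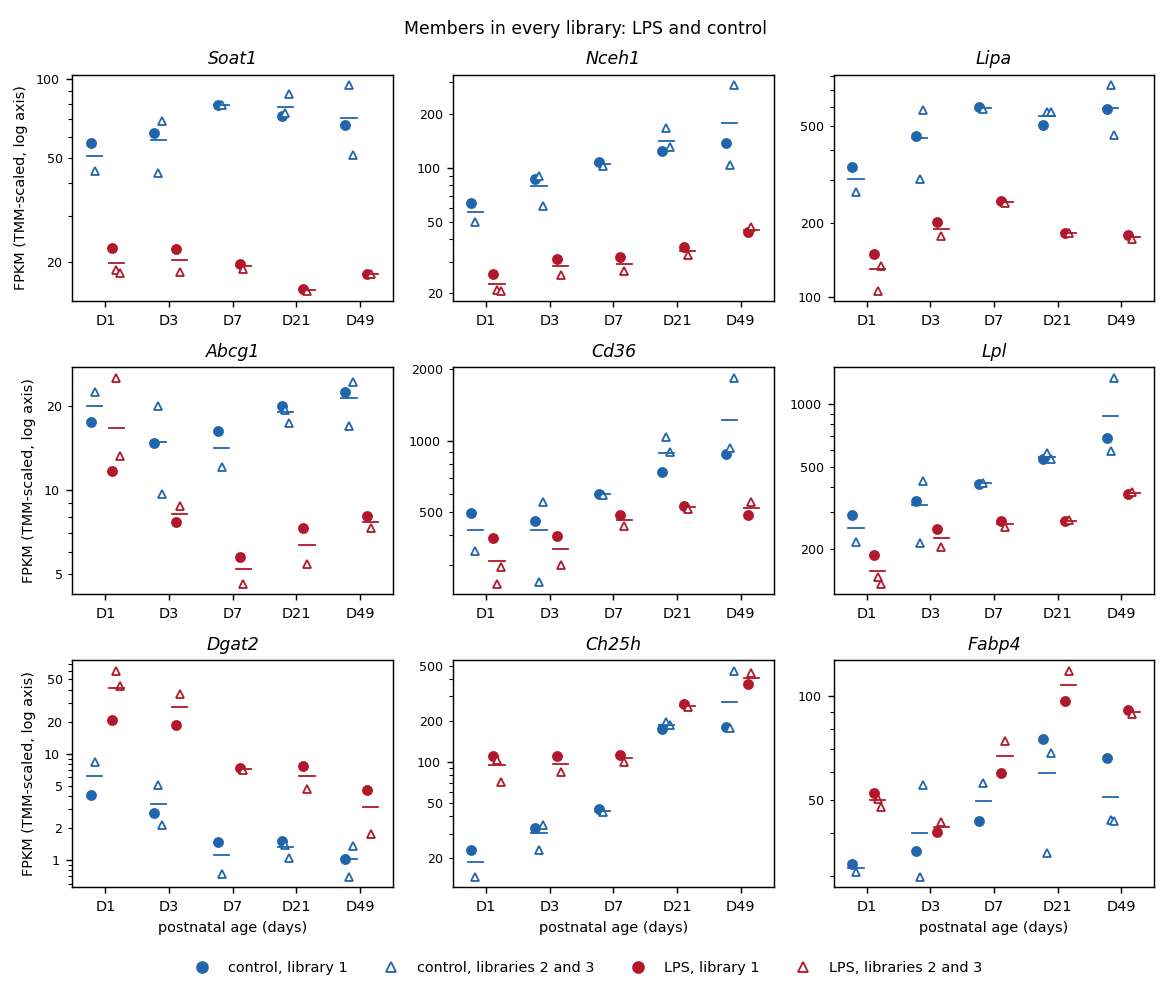
Levels of 9 members in every library. The x axis is postnatal age, the y axis is FPKM on a log axis, blue is control and red LPS, filled circles are libraries numbered 1, open triangles libraries 2 and 3, and short lines are group means. For Soat1, Nceh1 and Lipa all red points lie below all blue points of the same age, and for Dgat2 all lie above. The blue points of Ch25h climb from 14.5 and 22.8 FPKM at D1 to 173, 195 and 185 at D21. At D49 they stand at 179.7, 176 and 461 FPKM, the last in library 3 alone.

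Of the 3 fatty acid binding proteins, Fabp4 rose on average, beside 14.9% of all tested genes. Fabp4 is the form found in adipocytes and macrophages. Fabp4 read 32.6 and 30.8 for D1, 35.4, 29.9 and 55.0 for D3, 43.4 and 55.9 for D7, 75.3, 35.0 and 68.5 for D21, and 66.3, 43.6 and 43.4 for D49 (FPKM, control libraries). With LPS, Fabp4 read 52.2, 50.2 and 47.7 for D1, 40.2 and 43.1 for D3, 60.0 and 73.9 for D7, 96.6 and 118 for D21, and 90.9 and 88.5 for D49 FPKM. LPS libraries were above all controls at D1, D7, D21 and D49 and lay within the control range at D3. Fabp4 responded on average by 0.56 ± 0.14 (adjusted p = 0.00313), and 0 of the 5 single ages passed in the fit of all libraries. Markers of adipocytes, which also make Fabp4, summed to 7.5 to 22.1 CPM in D49 controls and to 0.9 to 5.1 CPM with LPS at D49, and their part in the Fabp4 response was not tested.

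Fabp5 has a pseudogene named Fabp5l2, and how reads that match both were counted is not given in the sources used here. Fabp5 read 218 and 332 for D1, 223, 418 and 359.9 for D3, 230.5 and 233 for D7, 243, 130.2 and 138 for D21, and 186, 98.8 and 36.7 for D49 (FPKM, control libraries). With LPS, Fabp5 read 150.1, 221 and 226 for D1, 118 and 207 for D3, 122 and 226 for D7, 142 and 189 for D21, and 107 and 75.9 for D49 FPKM. LPS libraries lay below all controls at D3 and D7 and overlapped at the other ages. Fabp5 responded on average by -0.44 ± 0.22 (adjusted p = 0.145). A call was made under the GC covariate (-0.69), among the 14 libraries (-0.67) and among those numbered 1 (-0.74).

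Fabp1, the liver form, is also a marker of alveolar macrophages in mice. Fabp1 read 1.69 and 4.89 for D1, 11.9, 18.5 and 20.1 for D3, 26.9 and 37.9 for D7, 117, 40.1 and 72.5 for D21, and 112, 56.8 and 34.5 for D49 (FPKM, control libraries). With LPS, Fabp1 read 9.29, 16.4 and 16.6 for D1, 7.70 and 18.0 for D3, 15.2 and 33.9 for D7, 119.5 and 166 for D21, and 132 and 97.3 for D49 FPKM. At D1 all LPS libraries were above both controls. The D1 response was 2.08 ± 0.61 (adjusted p = 0.0523) and the mean response 0.59 ± 0.25 (adjusted p = 0.0811). Under the GC covariate the D1 response was 1.92 and passed (adjusted p = 3.83e-04). The 7 liver markers, albumin among them, summed to 14.6 to 16.1 CPM in D1 controls and to 89.8 to 143 CPM with LPS at D1, and their part in the D1 difference was not tested.

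Of the 7 tested fatty acid oxidation genes, 0 rose and 3 fell with LPS on average, beside 14.9% up and 18.8% down over all genes. Cpt1a and Cpt2, the outer and inner membrane enzymes of the carnitine shuttle, were -0.34 ± 0.11 (adjusted p = 0.0229) and -0.61 ± 0.15 (adjusted p = 0.00413). Cpt2 was at 13.2 ± 0.69 FPKM (SD, n = 3) in D3 controls and 6.79 ± 0.35 (n = 2) with LPS, and the LPS libraries lay below all controls at D1, D3 and D7. Hadhb, the thiolase subunit of the trifunctional protein, was -0.58 ± 0.12 (adjusted p = 0.00111), with 14.0 ± 1.7 FPKM (n = 3) in D21 controls and 8.56 ± 0.14 (n = 2) with LPS. Hadha, the partner subunit that shares a start region with Hadhb, was -0.05 ± 0.15 (adjusted p = 0.871). The dehydrogenases Acadm, Acadl and Acadvl, which act on medium, long and very long acyl chains, were -0.28 ± 0.12 (adjusted p = 0.0852), -0.20 ± 0.13 (adjusted p = 0.274) and 0.76 ± 0.38 (adjusted p = 0.137). Exons of Dvl2 on the opposite strand cover 42.9% of the exonic bases of Acadvl, so its counts are uncertain.

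Both genes of oxysterol and phospholipid remodelling rose on average, beside 14.9% of all tested genes. Ch25h makes 25-hydroxycholesterol, an oxysterol that LPS and interferons are known to induce in macrophages. Ch25h read 22.8 and 14.5 for D1, 32.7, 22.9 and 34.8 for D3, 45.0 and 42.7 for D7, 173, 195 and 185 for D21, and 179.7, 176 and 461 for D49 (FPKM, control libraries). With LPS, Ch25h read 111, 103 and 71.6 for D1, 109 and 84.7 for D3, 112 and 100.4 for D7, 263 and 251 for D21, and 369 and 444 for D49 FPKM. LPS libraries lay above all controls from D1 to D21 and overlapped with D49 control library 3. Ch25h responded on average by 1.27 ± 0.16 (adjusted p = 2.77e-06). The response passed at D1 (2.35 ± 0.38), D3 (1.69 ± 0.34) and D7 (1.28 ± 0.38), and was 0.48 ± 0.34 (adjusted p = 0.394) at D21 and 0.58 ± 0.34 (adjusted p = 0.336) at D49. With the GC covariate D21 and D49 also passed, at 0.78 and 0.91. The D7 call ended on leaving out any of 9 single libraries. A divergent noncoding transcript overlaps 11.5% of its exonic bases.

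Lpcat2 makes platelet-activating factor and remodels phosphatidylcholine, and is known to be inducible by LPS in macrophages. Lpcat2 read 17.0 and 15.4 for D1, 21.7, 24.2 and 21.6 for D3, 15.3 and 16.1 for D7, 3.98, 4.21 and 3.15 for D21, and 5.11, 4.79 and 1.93 for D49 (FPKM, control libraries). With LPS, Lpcat2 read 14.2, 11.4 and 15.9 for D1, 25.5 and 26.4 for D3, 23.4 and 25.7 for D7, 8.12 and 8.98 for D21, and 8.12 and 7.91 for D49 FPKM. The LPS libraries were above all controls from D3 to D49 and overlapped with them at D1. Lpcat2 responded on average by 0.56 ± 0.13 (adjusted p = 0.00229). It was -0.23 ± 0.29 (adjusted p = 0.905) at D1, and passed at D21 (1.17 ± 0.29) and D49 (1.02 ± 0.29). The D21 call ended without D21 LPS replicate 2 (1.05, adjusted p = 0.0938), and the D49 call without either D49 LPS library, with adjusted p of 0.11 and 0.15.

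A wider list of 74 other lipid pathway genes had 58 tested. With LPS, 7 of them rose and 22 fell on average over ages, beside the 33.6% of all tested genes that passed, with a median log2 fold change of -0.19. Under the GC covariate 7 rose and 31 fell, beside 41.3% of all genes. The largest rises were of Fabp3, a fatty acid binding protein, at 3.12 ± 0.26 (adjusted p = 1.95e-08), of Acsl1, which activates long-chain fatty acids, at 1.33 ± 0.11 (adjusted p = 9.58e-09), and of Lpcat3, which places polyunsaturated chains in phospholipids, at 0.83 ± 0.24 (adjusted p = 0.0107). The largest falls were of Fabp7 at -2.42 ± 0.29 (adjusted p = 1.90e-06), of Lpin1, a phosphatidate phosphatase, at -2.03 ± 0.17, and of Lrp8, an apolipoprotein E receptor, at -1.92 ± 0.14 (adjusted p = 2.61e-09). Lpin1 group means were 0.72 to 2.29 FPKM in controls and 0.20 to 0.40 with LPS. Lpin1 was thus tested through its control libraries, and its fall is given as a description. Fabp7 was low as well, with group means of 0.57 to 2.55 FPKM in controls and 0.07 to 1.14 with LPS. With LPS its mean was below 1 FPKM at D3, D7, D21 and D49. These 6 genes kept their direction under the covariate and among the 14 libraries, and those besides Lpin1 passed under the covariate.

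Between D1 and D49, control macrophages gained Fabp1, Ch25h, Lpl and Nceh1 transcripts and lost Dgat1, Lpcat2 and Pla2g7 transcripts, both with and without the GC covariate. Of the 38 members, 8 rose and 14 fell, 57.9%, beside 42.8% of all tested genes (21.0% up, 21.9% down). The falls include Abca7 and Slc27a1, which were tested only because of D1 and D3 libraries. The median log2 change was -0.95 over the members and -0.03 over all genes. With the GC covariate 7 rose and 4 fell, beside 10.4% of all genes (5.96% up, 4.47% down), and the members' median was 0.16. The 14 libraries leave 1 control at D1 and 1 at D49, so there the age difference compares 1 library with 1. Without D1 control replicate 2, 5 of the 38 members passed, Ch25h, Fabp1 and Lpl as rises and Dgat1 and Lpcat2 as falls. The share of all genes that passed in that fit is not given here. Only 7 members were called in the same direction with and without the covariate: Ch25h, Fabp1, Lpl and Nceh1 rose, and Dgat1, Lpcat2 and Pla2g7 fell. All 7 kept their direction in the 14 libraries. The D1, D7 and D49 control groups of this section are those that the LPS responses were taken against, so a high control library raises the one and lowers the other.

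Fabp1 had the largest rise, 4.35 ± 0.68 (adjusted p = 2.32e-04), and its control levels are given above. Its D1 controls lay below all D3 controls, these below all D7 controls, and these below all D21 controls, and D49 overlapped with D7 and D21. Under the GC covariate the rise was 5.79, among the 14 libraries 5.99, and 5.32 without D1 control replicate 2. From D1 to D7 it was 3.29 ± 0.67 (adjusted p = 0.00728), which ended without D1 control replicate 1 (2.73, adjusted p = 0.12) and without D7 control replicate 2 (3.02, adjusted p = 0.0547). Liver markers summed to 14.6 to 16.1 CPM in D1 controls, 142 to 235 at D3, 270 to 346 at D7, 144 to 371 at D21 and 18.0 to 71.1 at D49. Their part in the age difference was not tested.

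Ch25h rose by 3.87 ± 0.41 (adjusted p = 4.77e-06), and its controls climbed without overlap from D1 to D3, D7 and D21. From D7 to D49 it was 2.63 ± 0.38 (adjusted p = 2.04e-04), and 1.97 without D49 control replicate 3. Lpl rose by 1.79 ± 0.33 (adjusted p = 8.45e-04) and by 1.07 ± 0.32 (adjusted p = 0.0445) from D7 to D49, and the latter call ended on leaving out any of 17 single libraries, with 0.57 and an adjusted p of 0.35 without D49 control replicate 3. Nceh1 rose by 1.64 ± 0.33 (adjusted p = 0.00194), which without D1 control replicate 2 was 1.47 with an adjusted p of 0.060. Cd36 and Lipa rose by 1.53 ± 0.35 (adjusted p = 0.00421) and 0.96 ± 0.25 (adjusted p = 0.00891). Cd36 and Lipa differed by 0.78 and 0.72 in the 14 libraries. Neither passed with the covariate (adjusted p = 0.132 and 0.118) or without D1 control replicate 2. Abca1 and Hadhb rose by 0.77 ± 0.30 (adjusted p = 0.043) and 0.80 ± 0.28 (adjusted p = 0.028), and passed in neither of the GC fits.

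Lpcat2 changed by -2.04 ± 0.29 (adjusted p = 8.76e-05), and the D7 to D49 difference was -1.99 ± 0.29 (adjusted p = 2.04e-04). All D21 and D49 controls lay below all D1, D3 and D7 controls. Dgat1 changed by -2.21 ± 0.40 (adjusted p = 8.15e-04), from 4.44 ± 0.88 FPKM (SD, n = 2) to 0.949 ± 0.50 (n = 3), and by -1.97 ± 0.40 (adjusted p = 0.00442) from D7. Without D7 control replicate 2 the latter call ended (adjusted p = 0.054). Pla2g7 differed by -0.79 ± 0.27 (adjusted p = 0.0271), and by -1.40 with the covariate. Its call without covariate ended on leaving out any of 9 single libraries, with adjusted p up to 0.16. Dgat2 differed by -2.62 ± 0.52 (adjusted p = 0.00175), and by -2.48 ± 0.60 (adjusted p = 0.0261) from D1 to D7. The D1 to D7 call ended without D1 control replicate 2 (-1.87, adjusted p = 0.322) and without either D7 control (adjusted p = 0.081 and 0.341). The D1 to D49 call of Dgat2 ended without D1 control replicate 2 (adjusted p = 0.0581) and did not hold with the covariate (-1.25, adjusted p = 0.1). The difference was -2.05 in the 14 libraries.

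**Figure D4:**
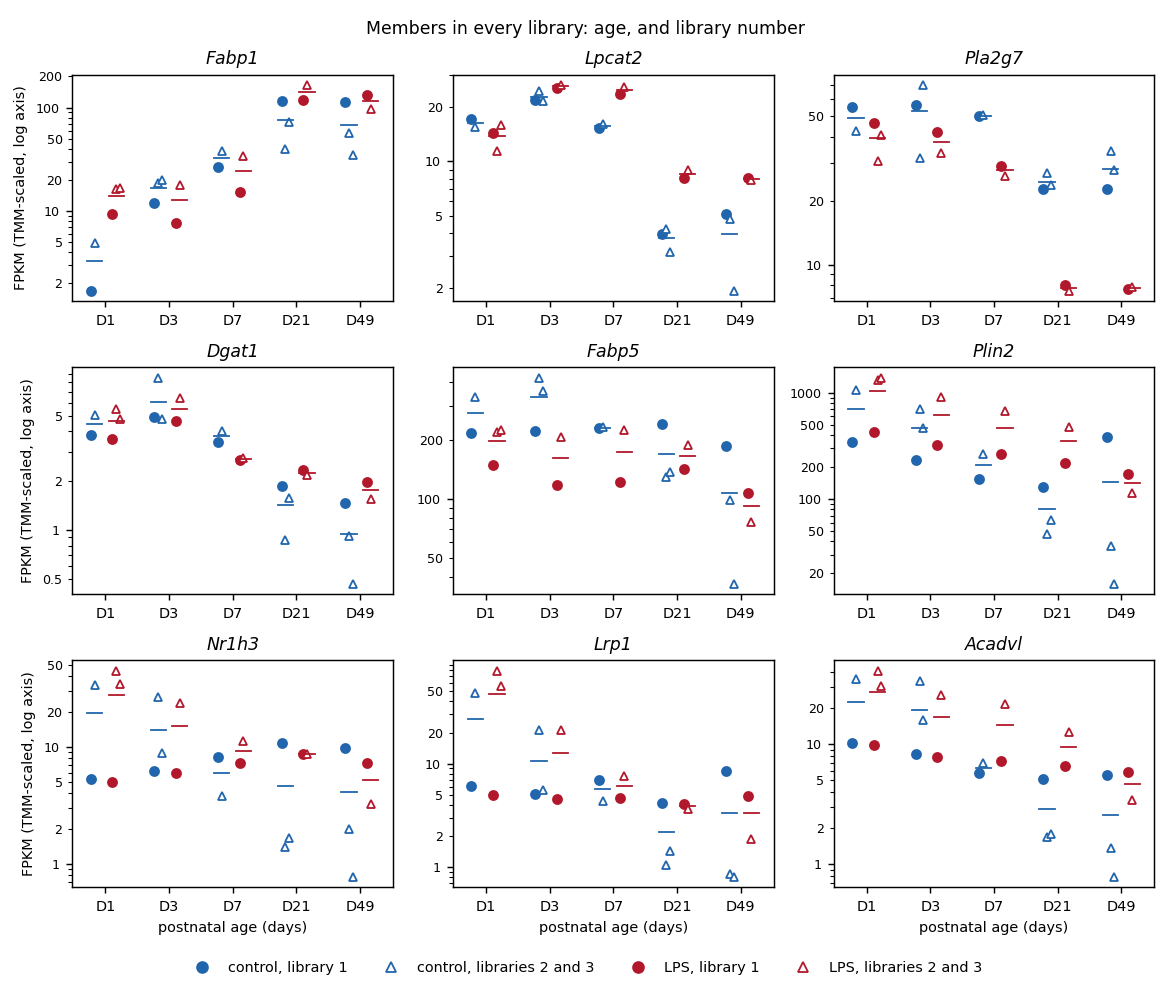
Levels of 9 further members in every library, with axes and symbols as in the plot of LPS and control levels. Fabp1 climbs and Lpcat2 and Dgat1 decline with age in circles and triangles alike, while in Nr1h3, Lrp1, Acadvl and Plin2 the triangles fall with age and the circles stay within a narrower range.

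The age differences ran with GC content. Across the 38 members, Spearman's correlation between the D1 to D49 change and transcript GC content was -0.77 in the fit of all libraries, -0.22 with the covariate and -0.40 in the 14 libraries. For the mean LPS response the correlation was 0.43 in the fit of all libraries, 0.23 with the covariate and 0.26 in the 14 libraries. The members share their libraries, so these correlations describe the fits only. Member GC content had a median of 51.3%, from 38.4% for Cd36 to 60.6% for Nr1h2.

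The 3 most negative D1 to D49 values were those of Abca7, Acadvl and Lrp1, and none of them passed in either GC fit. Abca7 and Slc27a1 were tested only because of D1 and D3 libraries, where they were high, so their falls are given as descriptions. Without both, 8 of 36 members rose and 12 fell, beside the 42.8% of all genes. Abca7 read 1.13 and 3.23 for D1, 0.858, 2.00 and 0.958 for D3, 0.572 and 0.442 for D7, 0.347, 0.177 and 0.0926 for D21, and 0.439, 0.116 and 0 for D49 (FPKM, control libraries). With LPS, Abca7 read 0.837, 3.75 and 3.20 for D1, 0.68 and 1.71 for D3, 0.498 and 0.871 for D7, 0.352 and 0.43 for D21, and 0.342 and 0.0623 for D49 FPKM. Library 1 went from 1.13 at D1 to 0.439 FPKM at D49 without LPS, and the other D1 control and the other D49 controls were further apart. The D1 to D49 change was -3.51 ± 0.96, and with the covariate it was -1.16.

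Acadvl read 10.2 and 35.1 for D1, 8.24, 33.8 and 15.8 for D3, 5.77 and 7.00 for D7, 5.11, 1.68 and 1.77 for D21, and 5.56, 1.35 and 0.784 for D49 (FPKM, control libraries). With LPS, Acadvl read 9.83, 40.9 and 30.3 for D1, 7.80 and 25.8 for D3, 7.30 and 21.6 for D7, 6.54 and 12.6 for D21, and 5.87 and 3.44 for D49 FPKM. Control library 1 again changed less, from 10.2 to 5.56 FPKM. The D1 to D49 change was -3.13 ± 0.85 (adjusted p = 0.0105), and -0.69 with the covariate (adjusted p = 0.367). Without D1 control replicate 2 it was -1.98, with an adjusted p of 0.21.

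Lrp1 read 6.09 and 48.4 for D1, 5.12, 21.2 and 5.58 for D3, 7.00 and 4.40 for D7, 4.15, 1.04 and 1.43 for D21, and 8.41, 0.862 and 0.81 for D49 (FPKM, control libraries). With LPS, Lrp1 read 4.94, 79.0 and 56.8 for D1, 4.54 and 20.9 for D3, 4.67 and 7.64 for D7, 4.07 and 3.69 for D21, and 4.87 and 1.87 for D49 FPKM. Control library 1 was higher at D49 than at D1, and the other D1 control stood above every other control library. The change of -3.02 ± 1.13 (adjusted p = 0.0396) turned to 0.76 (adjusted p = 0.241) under the covariate and to 0.41 (adjusted p = 0.525) among the 14 libraries.

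Calls of Slc27a1, Slc27a4, Npc2, Fabp5, Hadha, Cpt1a and Cpt2, all lower at D49, likewise ended with the covariate. In the 14 libraries Slc27a1 was -1.48, again as a description, and Cpt2 was -0.82. Plin2 was -2.27 ± 0.94 (adjusted p = 0.0592), -0.19 with the covariate and 0.10 in the 14 libraries. Apoe was -1.37 ± 0.55 (adjusted p = 0.0512), passed with the covariate at -2.11, and was -2.71 in the 14 libraries. Nr1h3, Pnpla2 and Mgll were negative without passing (-2.23, -2.08 and -0.85) and passed as rises with the covariate (1.42, 1.79 and 1.56), not in the 14 libraries. Abcg1, Soat1, Fabp4, Plin3, Acadm, Acadl, Npc1, Trem2, Pla2g15, Apoc1 and Nr1h2 passed in none of these 3 fits.

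**Figure D5:**
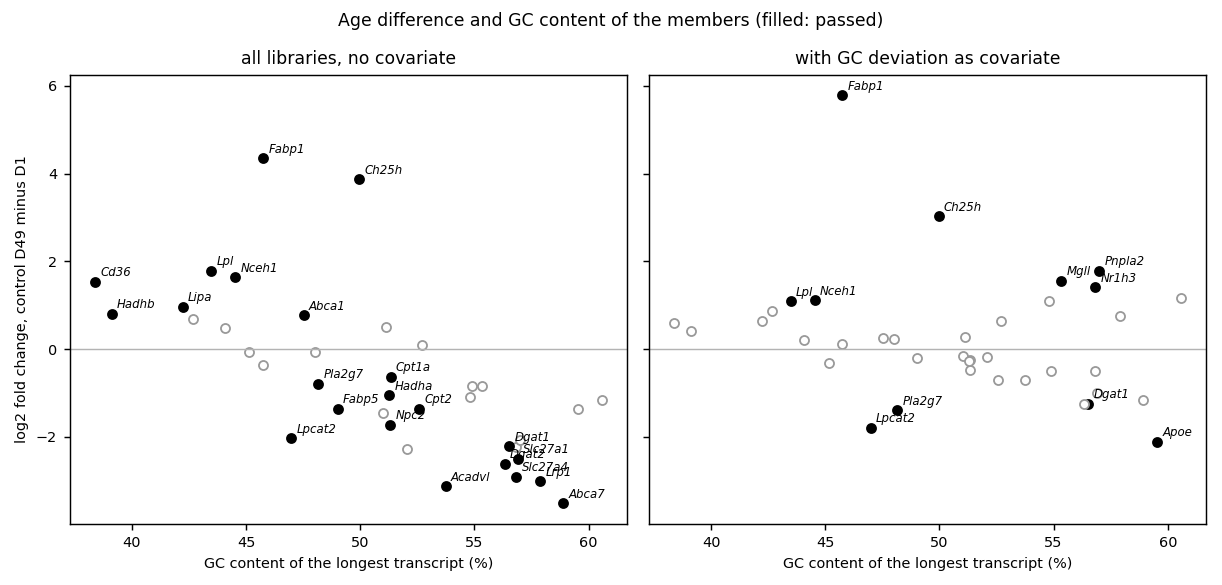
Age difference of the 38 tested members in control libraries (log2 fold change, D49 minus D1, y axis) against the GC content of the longest transcript (percent, x axis), without (left) and with (right) the GC balance of each library as a covariate. Filled points passed: 22 on the left and 11 on the right, and the downward slope of the left panel is weaker on the right.

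Over shorter spans few members passed. From D1 to D7 Fabp1 rose and Dgat2 fell, 2 of 38 beside 3.03% of all genes (1.55% up, 1.49% down), and both calls ended on leaving out single libraries, as given above. From D7 to D49 Ch25h and Lpl rose and Dgat1 and Lpcat2 fell, 4 of 38 beside 7.38% of all genes (4.05% up, 3.33% down). A test of any difference among the 5 control groups called 17 members, beside 34.7% of all genes, and 11 with the covariate, beside 17.2%. In the wider list 10 of 58 genes rose and 20 fell from D1 to D49, beside 42.8% of all genes, and with the covariate 4 rose and 8 fell, beside 10.4%. The largest rises were of Pla2g4a, the cytosolic phospholipase A2, at 1.96 ± 0.33 (adjusted p = 5.01e-04), Lpin1 at 1.66 ± 0.38 and Acsl3, a droplet-associated acyl-CoA synthetase, at 1.62 ± 0.39 (adjusted p = 0.00578). Lpin1 averaged 0.72 FPKM in D1 controls and 2.29 in D49 controls, on either side of the 1 FPKM rule, so its rise is given as a description. The largest falls were of Stard3, a late endosomal cholesterol carrier, at -3.70 ± 1.15 (adjusted p = 0.0181), Psap, the precursor of the saposins, at -3.49 ± 0.82 (adjusted p = 0.00527), and Angptl4, an inhibitor of lipoprotein lipase, at -3.45 ± 0.55 (adjusted p = 2.77e-04). Stard3 was -0.19 with the covariate (adjusted p = 0.868).

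Whether the LPS response itself differed between D49 and D1 was tested directly as an interaction. By edgeR on all libraries no member passed (0 of 38), and 24 of all tested genes did, 0.204%. With the GC covariate Pla2g7, Mgll and Ch25h passed, 3 of 38 beside 1.62% of all genes. Pla2g7 responded by -0.32 at D1 and -1.86 at D49, and the difference was -1.54 ± 0.40 (adjusted p = 0.173). With the covariate it was -1.43 (adjusted p = 0.0102), and DESeq2 gave -1.61 (adjusted p = 0.0291). Ch25h responded by 2.35 and 0.58, a difference of -1.77 ± 0.50 (adjusted p = 0.224), or -1.60 with the covariate (adjusted p = 0.0101). Mgll responded by -0.04 and -1.64, a difference of -1.60 ± 1.03 (adjusted p = 1), or -1.83 with the covariate (adjusted p = 0.00166). Among the 14 libraries 0 members passed, with adjusted p of 0.104, 0.0603 and 0.403 for these 3 genes. Lpcat2 and Abcg1, which passed at D49 and not at D1, differed by 1.25 ± 0.40 (adjusted p = 0.393) and -1.21 ± 0.46 (adjusted p = 0.628).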

How the data were processed

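RNA was purified with a column kit for small samples, poly(A) RNA was selected and libraries were prepared with a commercial kit, per the labels' protocols. Per the submitters' processing notes, STAR, DESeq2 and the build GRCm39 were used; neither the counting tool nor the annotation or strandedness is given in the sources used here. The authors deposited whole-number counts per Ensembl gene for 24 libraries, with exonic lengths (another deposited column, other than counts). Symbols came from GENCODE M21 (52073 of 56691 genes; the rest held 0.904% of counts). Each member matched 1 gene, and 0 further per-sample columns were left unused.

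Genes with at least 1 FPKM in 2 or more libraries, computed from counts, lengths and library totals, were tested. Counts were fitted with edgeR 4.0.16 (glmQLFit and glmQLFTest, TMM scaling) in R 4.3.3, with a mean for each of the 10 groups, and p-values were adjusted by Benjamini-Hochberg over 11774 genes, with a threshold of 0.05. SE was derived from the F statistic. Printed FPKM values use TMM-scaled totals. Differences are LPS less control, and older less younger. GC content, of the longest GENCODE M21 transcript, was known for 97.2% of tested genes, and the GC deviation of a library used a prior count of 2. The 14 libraries within 1 leave 1 library in some groups, each assumed to vary like the other groups. These are the D1, D21 and D49 controls and the D1, D3 and D49 LPS groups.

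The members and gene lists were chosen with earlier results of these data known. Alternatives were a GC covariate, the 14 libraries, DESeq2 1.42.0, upper-quartile scaling, no filter on low values, limma 3.58.1 on log2(FPKM + 1) and log2(FPKM + 0.1), a replicate block, leaving out each library, and, added after seeing the data, the libraries numbered 1 fitted with age and LPS, and a replicate block within each age. The scripts were tested on simulated counts. No 2 replicates were copies (chi-square over degrees of freedom at least 15.1). Per-library values are given for the 3 largest changes in each direction that passed in the mean LPS response, the D1 to D49 difference or the interaction, and always for Abca1, Abcg1, Apoe, Fabp1, Fabp4, Fabp5, Plin2, Cd36, Lpl and Trem2; Lpcat2, level with Fabp4, and single values of other members were added after the values were seen. Marker lists besides those in the report were neutrophil (38.4 to 237 CPM), monocyte and interstitial macrophage (8.8 to 57.5), airway epithelium (31.0 to 116), fibroblast (3.4 to 13.1), erythroid (0.2 to 66.7), lymphocyte (0.0 to 1.1) and endothelial (14.1 to 139). Each group held 2 or 3 libraries.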

Additional observations from a re-analysis of the deposited data

Results flagged for a closer look

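The D49 minus D1 difference in LPS response, fitted with the GC covariate by edgeR QL, passed for 3 members. It was -1.43 for Pla2g7, whose response was larger at D49. It was -1.83 for Mgll, which was lower with LPS at D49 and near its controls at D1. It was -1.60 for Ch25h, which rose less at D49. None of the 3 passed in edgeR on all libraries without covariate or block, where the adjusted p was 0.173, 1 and 0.224. DESeq2 without the covariate called Pla2g7 (-1.61, adjusted p = 0.0291), and the cause of the change was not tested.

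Dgat1 had all LPS libraries below all controls at D7 and above all controls at D21 and D49. The responses differed by 1.12 on the log2 scale between D21 and D7 and by 1.35 between D49 and D7. This difference was not tested, and none of the 3 responses passed on its own.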

How the results depend on the processing

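The 76 member results that passed kept their direction under DESeq2, upper-quartile scaling, no filter, both limma fits and the replicate block. Lrp1 from D1 to D49 reversed, to 0.76 with the GC covariate, 0.41 in the 14 libraries and 0.75 with the replicate block and the covariate, with the cause not tested. Counts of members that passed moved as follows. With the covariate, with the replicate block as well, and in the 14 libraries they were, in that order, 10, 8 and 5 for D1 (5 as reported), 10, 10 and 7 for D3 (5), 9, 9 and 13 for D7 (6), 12, 13 and 13 for D21 (8), 14, 13 and 11 for D49 (8), 5, 5 and 6 from D1 to D7 (2), 8, 8 and 7 from D7 to D49 (4), 11, 11 and 13 from D1 to D49 (22), 11, 13 and 11 for any control age difference (17), and 3, 3 and 0 for the D49 minus D1 response (0). Without the filter 10 passed from D1 to D7 and 8 from D7 to D49, limma gave 9 and 9 for the latter with pseudocounts of 1 and 0.1, and DESeq2 called 1 for the D49 minus D1 response. Leaving out 1 library gave 2 to 7 for D1, 3 to 6 for D3, 3 to 7 for D7, 5 to 9 for D21, 5 to 11 for D49, 14 to 20 for the mean response, 0 to 4 from D1 to D7, 2 to 13 from D7 to D49, 5 to 24 from D1 to D49, 12 to 22 for any age difference and 0 to 1 for the D49 minus D1 response. Over 96 pairs of libraries with the same number, deviations from the group means correlated from -0.75 to 0.83 (median 0.03). The replicate block alone left 70 of 76 member calls in place and 6 not passing. Within an age, the 10 pairs of control and LPS libraries with the same number correlated from 0.0733 to 0.831. This was above 0.1 in 7, short of the all-pairs rule for pairing. Each D7 group held 2 libraries, so the 2 D7 pairs mirror each other and hold 1 value (0.0975). Of 20 libraries, 18 correlated best with their own number, which at D7 follows from that value being positive. A replicate block within each age, chosen after seeing the data and leaving 5 residual degrees of freedom, called 9, 9, 11, 12 and 11 members at D1, D3, D7, D21 and D49, 23 for the mean and 2 (Pla2g7 and Ch25h) for the D49 minus D1 response. With the GC covariate it called 15, 15, 18, 15, 19, 24 and 9, with 4 residual degrees of freedom. Shares of all genes called are not given for the counts of this section, so these counts do not set the members against other genes. The 48 LPS calls all passed in both, and Plin2 passed for the mean response (0.81, adjusted p = 0.0432, and 0.30 with the covariate, adjusted p = 0.0371).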
